A study of Mus musculus with 12 samples.

Results

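Ccn2, Thbs1, Thsd7a, Fn1 and Tgfbi, 5 genes of secreted or membrane-bound matrix proteins, were followed across the 4 groups of a targeted RNA experiment in mouse pancreatic stellate cells (PSCs). The genes were chosen by name, for the proteins they encode, from 420 genes listed in the deposited tables. Earlier results of these data were known when they were chosen. All 5 were among the 238 genes kept for testing, which reached a normalized count of 10 or more in 3 or more libraries. PSCs are the fibroblast-like cells of the pancreas that turn into contractile, matrix-producing myofibroblasts when activated. The panel amplified and sequenced transcripts of extracellular matrix (ECM) and cell adhesion genes from total RNA.

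The inducible PSCs, of C57BL/6 background, came from the pancreas of 1 male Rosa26CreERT2 PKN2 fl/fl mouse, in which the tamoxifen-activated recombinase CreERT2 is carried at the Rosa26 locus, and were immortalised with SV40 large T antigen. Brief exposure to 4-hydroxytamoxifen deleted PKN2, a protein kinase of the protein kinase C-related family, to give PKN2 KO PSCs, and PKN2 WT PSCs served as the reference genotype. The methods describe no PSCs from another mouse and state no 4-hydroxytamoxifen control for the WT PSCs. Differences between genotypes therefore cannot be told apart from effects of 4-hydroxytamoxifen or of active CreERT2. Each genotype received either vehicle or TGF-β1 at 5 ng/ml, and RNA was taken after 72 h. The 4 groups, WT with vehicle, PKN2 KO with vehicle, WT with TGF-β1 and PKN2 KO with TGF-β1, held 3 libraries each, labelled A, B and C, 12 in all. The study's methods describe n in its cell culture work as biological replicates, while the labels do not say what separated the libraries of a group, and the PSCs came from 1 mouse, so the p-values measure the spread between these libraries and not between animals. Pkn2 itself is not on the panel, so its deletion could not be checked in these files.

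TGF-β1 binds paired receptor kinases that phosphorylate SMAD transcription factors, and in fibroblasts it induces many matrix genes. Mechanical load acts on the same cells through the co-activator YAP, which binds DNA with TEAD factors, and Ccn2 is among the best known genes that both pathways induce. CCN2, also called CTGF, is a matricellular protein that modulates growth factor and integrin signalling. Thrombospondin-1 (Thbs1) is a matricellular glycoprotein with type 1 repeats that can release active TGF-β from its latent complex. THSD7A is a membrane protein with many thrombospondin type 1 repeats, fibronectin (Fn1) is a structural glycoprotein that cells assemble into fibrils through integrins, and TGFBI is a secreted adhesion protein with fasciclin domains that was named for its induction by TGF-β.

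The libraries held between 1074095 and 1473153 reads on the panel. The deposited values were normalized counts, each library's reads divided by 1 factor, and the smallest number of reads behind a value of the 5 genes was 52, for Thsd7a. Of 10 mesenchymal markers, 9 were tested, and the summed normalized count of the 10 was between 317507 and 671440 in every library. Col1a1, Bgn and Sparc dominated this sum, with means of 149555, 110927 and 93719 in WT with vehicle. Lum, the marker not tested, had means of 2.43 in WT and 0.471 in PKN2 KO with vehicle, and 0 with TGF-β1. Dcn was also low, at 21.5 and 35.3 with vehicle. The summed levels of 6 epithelial markers lay between 3.52 and 57.4, those of 7 endothelial markers between 10.5 and 35.6, and those of 6 immune markers between 4.30 and 33.9, with Sele, Mmrn1 and Itgal at no read in any library. With TGF-β1, Lamb3 rose by 2.91 on the log2 scale in WT and by 3.56 in PKN2 KO PSCs, Selp rose by 3.09 and 3.88, and Itgb2 changed by -1.31 and -1.65, each at mean levels of at most 29.8 normalized counts. Cdh11 rose by 2.06 and 1.98, while Dcn changed by -3.24 and -2.81 and Col6a1 by -1.69 and -1.33, all past the threshold. With TGF-β1 the Dcn means were 0.977 in WT and 3.69 in PKN2 KO PSCs. The size of its WT change therefore varied, from -4.47 to -1.97 over 12 alternatives of scaling, test, filter, pseudocount and variance estimate. The part of these marker changes in the results on TGF-β1 was not tested. Fewer cells of a type and less RNA per cell cannot be told apart in bulk libraries.

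Of the promoters of the 5 genes, those of Thsd7a and Tgfbi were in the RefSeq table used here (build GRCm38.p6). The Tgfbi promoter is shown because the gene carries the name of its inducer, while its counts, given below, were not higher with TGF-β1. The stretch is chr13:56609336-56609522 on the plus strand, 187 bases that lie upstream of both the RefSeq and the GENCODE start, with the letters of the SMAD-binding pentamer CAGAC, read on the minus strand, in capitals.
Tgfbi promoter: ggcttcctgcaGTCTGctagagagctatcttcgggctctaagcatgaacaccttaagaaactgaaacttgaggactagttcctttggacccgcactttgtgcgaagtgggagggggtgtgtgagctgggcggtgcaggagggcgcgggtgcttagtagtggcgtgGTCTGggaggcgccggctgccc
On both strands of the 250 bases before the RefSeq start, the pentamer CAGAC was found 2 times for Tgfbi, at -239 to -235 and -85 to -81 from the start, and 1 time for Thsd7a, at -143 to -139. Only 93 bases of the Thsd7a window lie upstream of the GENCODE start too, and its match lies within the GENCODE gene. It is a common sequence, present in 42.2% of 32851 mouse promoter windows of that length. The SMAD palindrome GTCTAGAC (0.167% of windows) and the TEAD element GGAATG (12.6% of windows) were not among the letters of either window. CAGAC shares 4 letters, AGAC, with the end of the palindrome, and none of the matches lay in one.

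Ccn2 (ENSMUSG00000019997; GRCm38 chromosome 10, 24595442 to 24598683, plus strand) had its highest counts in WT PSCs given TGF-β1. Its normalized counts were 16769, 25375 and 25292 in libraries A, B and C of WT with vehicle, and 56006, 47181 and 58592 in those of WT with TGF-β1. In PKN2 KO PSCs they were 25506, 24112 and 21302 with vehicle, and 27421, 19487 and 25482 with TGF-β1. All 3 WT libraries with TGF-β1 lay above the other 9 libraries, whose 3 groups overlapped one another. The order of the group means was therefore WT with TGF-β1 at 53926 ± 5983 (SD, n = 3), followed by 24130 ± 4136 in PKN2 KO with TGF-β1, 23640 ± 2142 in PKN2 KO with vehicle and 22479 ± 4945 in WT with vehicle, the last 3 not differing beyond their spread. As a share of all panel reads, Ccn2 took 4.01% ± 0.45 in WT with TGF-β1 and between 1.77% and 2.04%, on average, in the other 3 groups.

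In WT PSCs Ccn2 rose with TGF-β1 by 1.28 on the log2 scale (SE 0.22, limma adjusted p = 0.000184), which is 2.43-fold. In PKN2 KO PSCs the difference was 0.02, with a 95% interval from -0.46 to 0.50 (adjusted p = 0.97), and its sign was negative with scaling to the total count. After TGF-β1, PKN2 KO PSCs had less Ccn2 than WT PSCs, with a log2 difference of -1.17 (SE 0.22, adjusted p = 0.00166), or 0.445 of the WT level. With vehicle the genotypes differed by 0.09 (interval -0.38 to 0.57, adjusted p = 0.84), and the sign of this value was negative with TMM or median-of-ratios scaling. The interaction, the response in PKN2 KO less that in WT, was -1.26 (SE 0.31, adjusted p = 0.0386). Its direction was kept in the 12 fits that each left out 1 library, at -1.36 to -1.07. Its call was kept without WT vehicle B, WT TGF-β1 B or PKN2 KO TGF-β1 A, and lost without any 1 of the other 9 libraries, with adjusted p-values over the 12 fits from 0.0301 to 0.131. The call was also lost with scaling to the total count (adjusted p = 0.0661), with edgeR's quasi-likelihood test (0.0535) and without a trend of the variance (0.0534), in a range of 0.00119 to 0.10 over 12 alternatives of scaling, test, filter, pseudocount and variance estimate.

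Thbs1 (ENSMUSG00000040152; chromosome 2, 118111876 to 118127133, plus strand) had a higher level with TGF-β1 in WT PSCs, and its level after TGF-β1 was lower in PKN2 KO PSCs. Its normalized counts in libraries A, B and C were 8282, 6968 and 7769 in WT with vehicle, and 26926, 17429 and 23268 in WT with TGF-β1. Those of PKN2 KO were 9211, 8163 and 8106 with vehicle, and 15110, 9320 and 11887 with TGF-β1. The WT libraries with TGF-β1 were the highest 3, and the PKN2 KO libraries with TGF-β1 came next, library B of which was only just above the highest PKN2 KO vehicle library. The vehicle groups of both genotypes overlapped. The means were 22541 ± 4790 in WT with TGF-β1, 12106 ± 2901 in PKN2 KO with TGF-β1, 8493 ± 622 in PKN2 KO with vehicle and 7673 ± 662 in WT with vehicle (SD, n = 3). Library B was the lowest of the 3 in both TGF-β1 groups, and on the share of reads this spread was small, with 1.65% ± 0.037 in WT and 0.878% ± 0.021 in PKN2 KO PSCs.

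In WT PSCs Thbs1 rose by 1.54 with TGF-β1 (SE 0.22, limma adjusted p = 3.43e-05), or 2.90-fold. In PKN2 KO PSCs the difference was 0.49 (95% interval 0.01 to 0.96), which did not pass the threshold (adjusted p = 0.0908), although the groups did not overlap. It passed with each of the 3 other scalings (TMM, median of ratios, total count) and with DESeq2, at differences of 0.29 to 0.55 and adjusted p-values of 0.00687 to 0.0411 (up to 0.16 over 13 such alternatives), and without PKN2 KO TGF-β1 B (0.66, adjusted p = 0.0249). After TGF-β1, PKN2 KO PSCs had 0.535 of the WT level, a log2 difference of -0.90 (SE 0.22, adjusted p = 0.0112). This call was lost without WT TGF-β1 A (-0.76, adjusted p = 0.0535) or C (-0.87, adjusted p = 0.0561), and in a fit of the 6 libraries alone (-0.90, adjusted p = 0.0635; range over 13 such alternatives 0.000119 to 0.0635). With vehicle the difference was 0.15 (interval -0.33 to 0.63, adjusted p = 0.74), of negative sign with TMM or median-of-ratios scaling. The interaction was -1.05 (SE 0.32, adjusted p = 0.11), so that a difference between the responses was not called, and its adjusted p ranged from 0.00494 to 0.13 over the 12 alternatives of scaling, test, filter, pseudocount and variance estimate. It passed with each of the 3 other scalings (adjusted p = 0.00494 to 0.0212), with DESeq2 (0.0180), without WT TGF-β1 B (-1.22, adjusted p = 0.0454) and without PKN2 KO TGF-β1 A (-1.22, adjusted p = 0.0322).

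**Figure D1:**
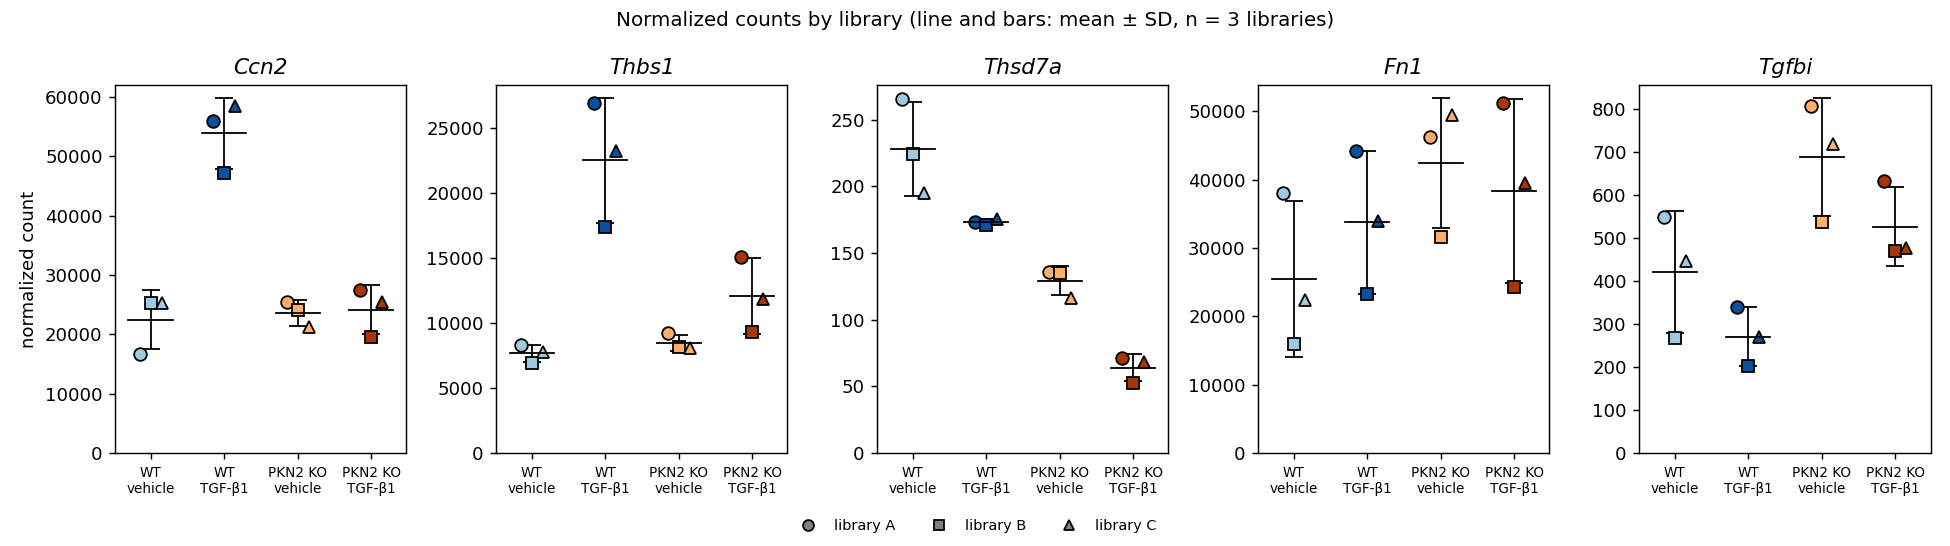
Normalized counts (vertical axis, linear from 0, a scale of its own for each gene) of the 5 genes in each of the 12 libraries by group, with circles, squares and triangles for libraries A, B and C, and the line and bars for the mean ± SD of 3 libraries. Ccn2 and Thbs1 are highest in WT with TGF-β1, the 4 groups of Thsd7a do not overlap, and those of Fn1 do.

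Thsd7a (ENSMUSG00000032625; chromosome 6, 12311610 to 12749410, minus strand) was lower without PKN2, both with vehicle and with TGF-β1. Its normalized counts in libraries A, B and C were 266, 224 and 195 in WT with vehicle, and 173, 171 and 176 in WT with TGF-β1. They were 136, 135 and 117 in PKN2 KO with vehicle, and 71.1, 52.4 and 68.4 in PKN2 KO with TGF-β1. No group overlapped another, and the order was WT with vehicle (228 ± 35), WT with TGF-β1 (173 ± 2.6), PKN2 KO with vehicle (129 ± 11) and PKN2 KO with TGF-β1 (64.0 ± 10), as means ± SD of 3 libraries. The values rested on 52 to 61 reads per library in PKN2 KO with TGF-β1 and on 198 to 332 reads in WT with vehicle, so that counting error is larger here than for the other 4 genes. As a share of reads, the PKN2 KO vehicle libraries (0.0112% ± 0.0029) and the WT libraries with TGF-β1 (0.0131% ± 0.0025) overlapped, unlike on the normalized scale.

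With vehicle the log2 difference of PKN2 KO from WT was -0.81 (SE 0.21, limma adjusted p = 0.0175), or 0.571 of the WT level. The call was lost without WT vehicle A (-0.70, adjusted p = 0.0693), PKN2 KO vehicle A (-0.85, adjusted p = 0.0593) or PKN2 KO vehicle C (-0.74, adjusted p = 0.0801). After TGF-β1 the difference was -1.44 (SE 0.21, adjusted p = 0.000249), or 0.370 of the WT level, and it was called in all 12 fits that left out a library and under the 16 other alternatives. Thsd7a fell with TGF-β1 in PKN2 KO PSCs by 1.01 on the log2 scale (SE 0.21, adjusted p = 0.00107), which held under the same alternatives. In WT PSCs the difference was -0.38 (95% interval -0.83 to 0.07, adjusted p = 0.15), and it passed with scaling to the total count (-0.63, adjusted p = 0.0352; range over 13 such alternatives 0.0237 to 0.19). The interaction was -0.63 (interval -1.26 to 0.01, adjusted p = 0.49), and a difference between the 2 responses was not called under any alternative.

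Fn1 (ENSMUSG00000026193; chromosome 1, 71585520 to 71653200, minus strand) varied between libraries of 1 group by as much as between groups. Its normalized counts in libraries A, B and C were 38099, 15884 and 22429 in WT with vehicle, and 44173, 23210 and 33906 in WT with TGF-β1. They were 46203, 31630 and 49529 in PKN2 KO with vehicle, and 51198, 24367 and 39540 in PKN2 KO with TGF-β1. Library B was the lowest in all 4 groups, so part of this spread was shared by libraries of the same letter, and every pair of groups overlapped. Between libraries of the same letter, the ratio of PKN2 KO to WT with vehicle was 1.21, 1.99 and 2.21 for A, B and C. After TGF-β1 this ratio was 1.16, 1.05 and 1.17. The ratio of TGF-β1 to vehicle was 1.16, 1.46 and 1.51 in WT, and 1.11, 0.77 and 0.80 in PKN2 KO PSCs. The labels do not say what the letters mark, so these ratios are a description. The means were 42454 ± 9520 in PKN2 KO with vehicle, 38368 ± 13454 in PKN2 KO with TGF-β1, 33763 ± 10482 in WT with TGF-β1 and 25471 ± 11416 in WT with vehicle (SD, n = 3), and no neighbours in this order differed beyond their spread.

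None of the 5 Fn1 comparisons passed the threshold in the main limma fit, and 1, that of the genotypes with vehicle, had an unadjusted p under 0.05 (0.0415). PKN2 KO differed from WT by 0.80 with vehicle (95% interval 0.04 to 1.57, adjusted p = 0.17) and by 0.17 after TGF-β1 (interval -0.60 to 0.94, adjusted p = 0.82). TGF-β1 against vehicle gave 0.45 in WT (interval -0.32 to 1.22, adjusted p = 0.34) and -0.18 in PKN2 KO PSCs (interval -0.95 to 0.58, adjusted p = 0.71), and the interaction was -0.64 (adjusted p = 0.73). A p that misses the threshold does not show that Fn1 was the same. The vehicle difference was called without WT vehicle A (1.14, adjusted p = 0.04996) and with scaling to the total count (0.74, adjusted p = 0.0208; range over 13 such alternatives 0.0208 to 0.24). That range holds no fit that allowed for the library letter. A limma fit of the letter as a block, its variance trend left out, called the vehicle difference (0.80, adjusted p = 0.00484). It also called the WT response to TGF-β1 (0.45, adjusted p = 0.0324). The genotypes after TGF-β1 (adjusted p = 0.46), the PKN2 KO response (0.33) and the interaction (0.12) were not called in that fit. As a share of panel reads, Fn1 took 3.54% ± 0.16 in PKN2 KO with vehicle and 2.19% ± 0.73 in WT with vehicle, and these groups did not overlap on that scale.

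Tgfbi (ENSMUSG00000035493; chromosome 13, 56609523 to 56639562, plus strand) was the member called higher in PKN2 KO after TGF-β1, the opposite direction to Ccn2, Thbs1 and Thsd7a. Its mean was also higher in PKN2 KO with vehicle, where the difference was not called. Its normalized counts in libraries A, B and C were 549, 268 and 448 in WT with vehicle, and 340, 202 and 270 in WT with TGF-β1. They were 808, 538 and 720 in PKN2 KO with vehicle, and 633, 469 and 478 in PKN2 KO with TGF-β1. Library A was the highest and library B the lowest in each group. From the top, the means were 689 ± 137 in PKN2 KO with vehicle, 527 ± 92 in PKN2 KO with TGF-β1, 422 ± 142 in WT with vehicle and 271 ± 69 in WT with TGF-β1 (SD, n = 3), each group overlapping its neighbours, while the genotypes did not overlap after TGF-β1.

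After TGF-β1 the difference of PKN2 KO from WT was 0.98 (SE 0.27, limma adjusted p = 0.0213), or 1.97-fold. The call was lost without WT TGF-β1 B (0.78, adjusted p = 0.0856), WT TGF-β1 C (0.99, adjusted p = 0.0616) or PKN2 KO TGF-β1 A (0.84, adjusted p = 0.0837). With vehicle the difference was 0.75 (95% interval 0.18 to 1.32) and did not pass (adjusted p = 0.0818), but it passed without WT vehicle A (0.97, adjusted p = 0.0304) and with scaling to the total count (0.69, adjusted p = 0.0215; range over 13 such alternatives 0.0215 to 0.16). TGF-β1 against vehicle gave -0.61 in WT (interval -1.18 to -0.04, adjusted p = 0.0707) and -0.38 in PKN2 KO PSCs (interval -0.95 to 0.19, adjusted p = 0.30). The PKN2 KO value passed with scaling to the total count (-0.58, adjusted p = 0.0166; range over 13 such alternatives 0.0166 to 0.36). The WT value passed with each of the 3 other scalings (-0.86 to -0.64, adjusted p = 0.00129 to 0.0282; range over 13 such alternatives 0.00129 to 0.13), without WT vehicle B (-0.90, adjusted p = 0.00690) and without WT TGF-β1 A (-0.79, adjusted p = 0.0315). On the share of reads, Tgfbi took 0.0365% ± 0.0085 in WT with vehicle, 0.0197% ± 0.0014 in WT with TGF-β1, 0.0577% ± 0.0051 in PKN2 KO with vehicle and 0.0389% ± 0.0057 in PKN2 KO with TGF-β1. The interaction was 0.23 (interval -0.58 to 1.04, adjusted p = 0.89).

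**Figure D2:**
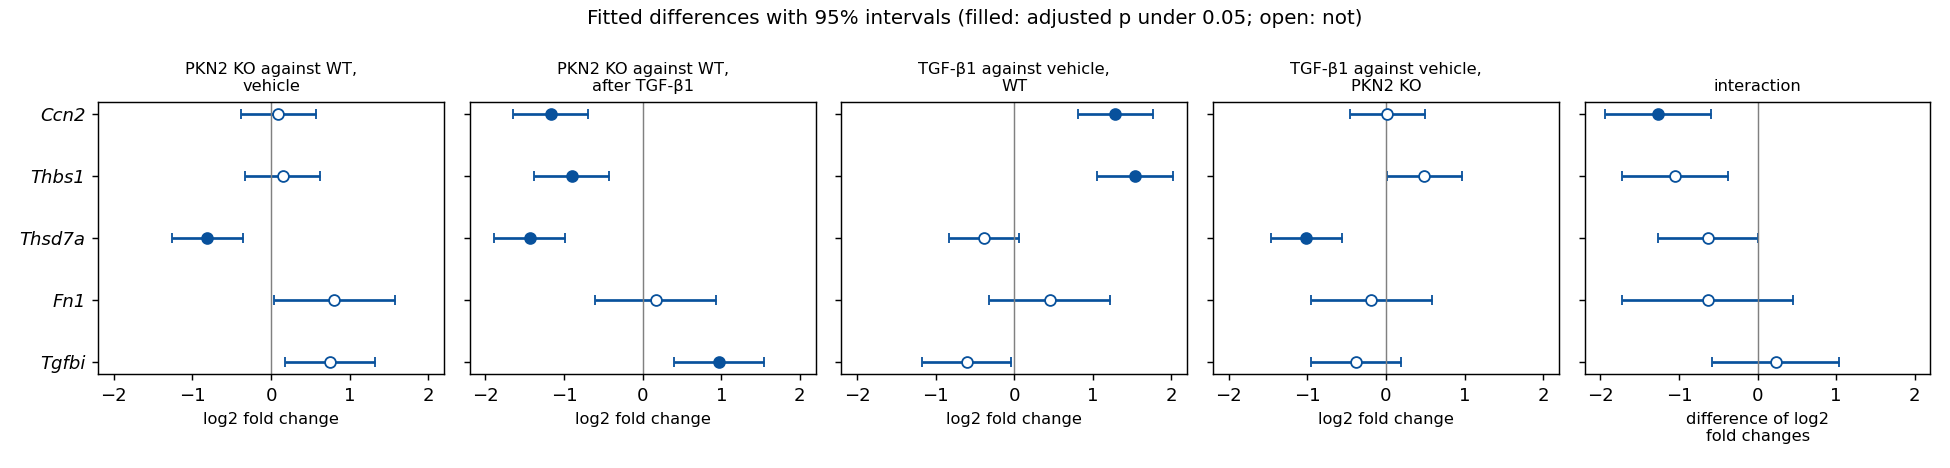
Fitted differences of the 5 genes in the 4 comparisons (log2 fold change, horizontal axis) and the interaction (difference of log2 fold changes), with 95% intervals, filled where the adjusted p was under 0.05. After TGF-β1, Ccn2, Thbs1 and Thsd7a lie below 0 and Tgfbi above it, and the interaction is filled for Ccn2 alone of the 5.

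Across the 5 genes, PKN2 KO against WT gave 1 call with vehicle, of lower level, where 13.9% of the 238 genes were called. After TGF-β1 it gave 4 calls, 1 higher and 3 lower, against 15.1% of all genes (21 higher and 15 lower, but 27 and 29 with TMM and 25 and 30 with median-of-ratios scaling). TGF-β1 gave 2 calls, both higher, in WT PSCs, against 50.8% of all genes, and 1 call, lower, in PKN2 KO PSCs, against 48.7%. The interaction was called for 1 of the 5 genes and for 3.36% of all genes, which is 8 genes. Libraries of the 2 groups did not overlap for 1 of the 5 genes with vehicle (32.4% of all genes), 4 after TGF-β1 (28.2%), 3 for TGF-β1 in WT (55.9%) and 2 for TGF-β1 in PKN2 KO (52.9%). The median log2 difference of the 5 genes was 0.15 with vehicle, -0.90 after TGF-β1, 0.45 for TGF-β1 in WT, -0.18 for TGF-β1 in PKN2 KO and -0.64 for the interaction, beside medians of 0.21, 0.13, 0.00, -0.14 and -0.07 over all 238 genes. The comparisons share groups, so these counts are not independent of each other. The 5 genes were chosen with earlier results of these data known. Their counts and medians beside those of all genes are therefore a description, not a test.

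The factor that scales a library moved all genes together. With the authors' factors the median gene was 0.21 higher in PKN2 KO with vehicle, against 0.03 with TMM, -0.02 with median-of-ratios and 0.15 with total count scaling. With TGF-β1 the median gene changed by -0.25 in WT and -0.34 in PKN2 KO PSCs with total count scaling, beside 0.00 and -0.14 with the authors' factors. Relative to the median of all genes with the authors' factors, the vehicle differences were -1.02 for Thsd7a, 0.60 for Fn1, 0.54 for Tgfbi, -0.11 for Ccn2 and -0.06 for Thbs1. After TGF-β1 the genotype differences relative to the median were -1.57 for Thsd7a, -1.30 for Ccn2, -1.03 for Thbs1, 0.85 for Tgfbi and 0.04 for Fn1. The relative response to TGF-β1 in WT and in PKN2 KO PSCs was 1.28 and 0.16 for Ccn2, and 1.54 and 0.63 for Thbs1.

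**Figure D3:**
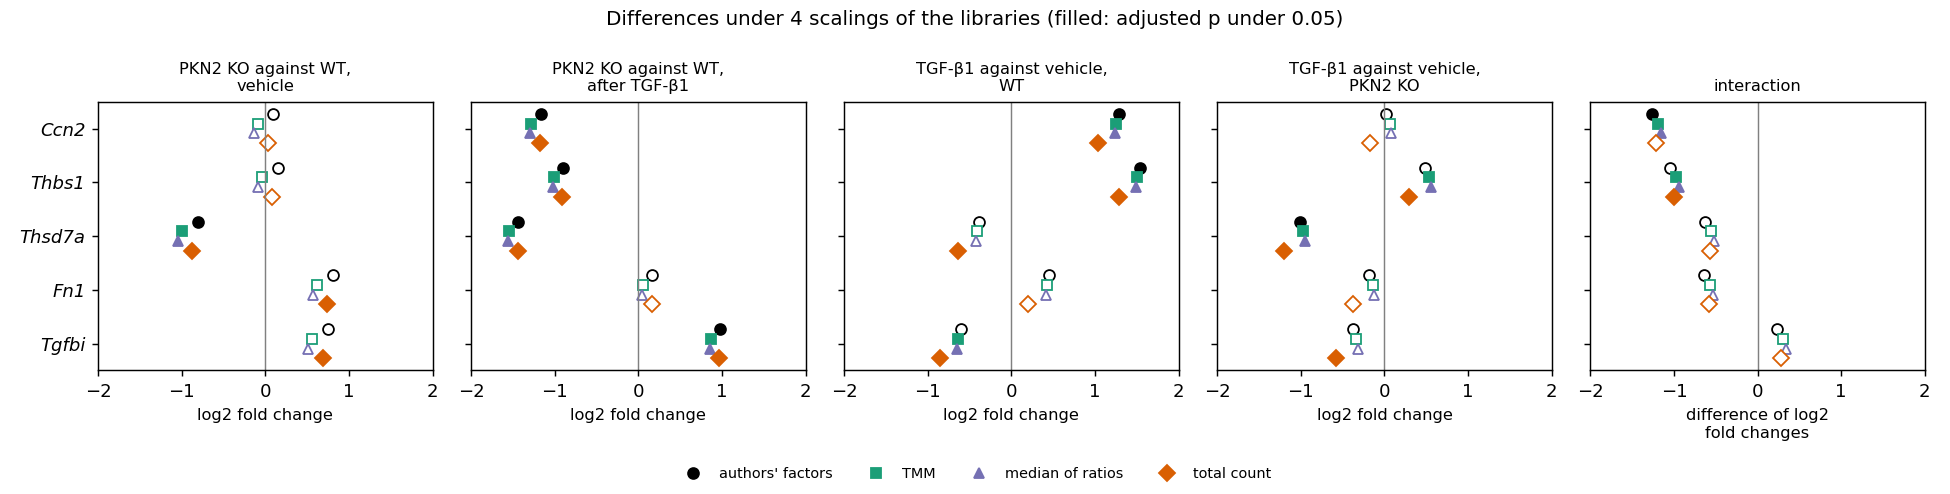
Differences of the 5 genes in the 4 comparisons and the interaction (horizontal axis, log2) under the authors' factors, TMM, median-of-ratios and total count scaling, filled where the adjusted p was under 0.05. The PKN2 KO against WT differences after TGF-β1 of Ccn2, Thbs1, Thsd7a and Tgfbi are filled under all 4 scalings, while the vehicle differences of Fn1 and Tgfbi are filled under total count scaling.

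**Figure D4:**
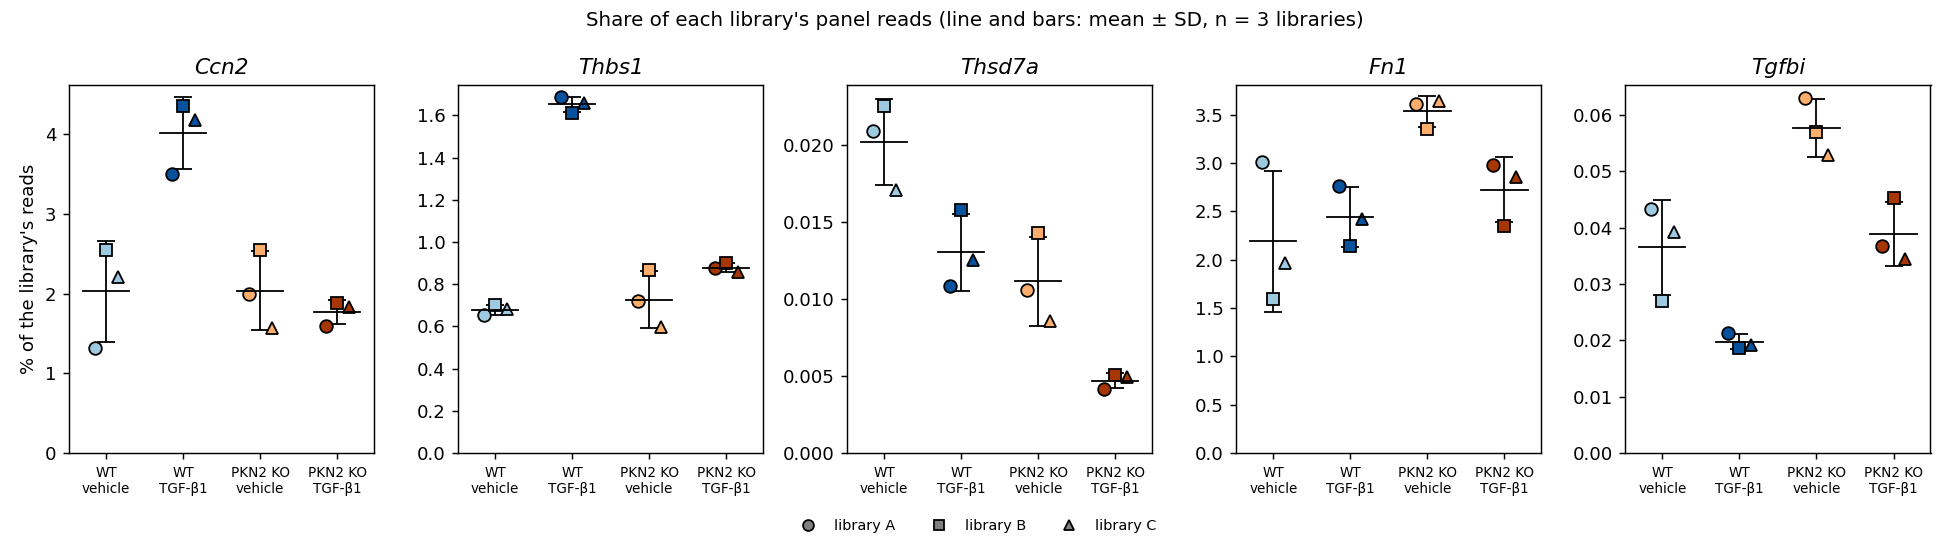
Share of each library's panel reads (vertical axis, %, linear from 0, a scale of its own for each gene) taken by the 5 genes, with library symbols and mean ± SD bars over 3 libraries. The Thbs1 libraries with TGF-β1 lie close together within each genotype, at 1.65% ± 0.037 and 0.878% ± 0.021, and Fn1 with vehicle is higher in the PKN2 KO than in the WT libraries.

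Thbs2 encodes the thrombospondin most like thrombospondin-1 in domain structure. Of 7 other genes of thrombospondins and type 1 repeat proteins on the panel, 3 were tested and 0 were called between genotypes by limma, edgeR or DESeq2, with 0 at an unadjusted p under 0.05. Over all 238 genes, limma called 13.9% between genotypes with vehicle and 15.1% after TGF-β1. With total count scaling 1 of the 3, Thbs2, was called with vehicle (0.39, adjusted p = 0.0215; range over 13 such alternatives 0.0215 to 0.53) and after TGF-β1 (0.48, adjusted p = 0.00404; range 0.00404 to 0.38), with more in PKN2 KO PSCs. Thbs2 went from 9128 ± 2241 to 15742 ± 4238 normalized counts in WT and from 12322 ± 1927 to 22388 ± 7246 in PKN2 KO PSCs (SD, n = 3), and rose with TGF-β1 by 0.78 (limma adjusted p = 0.0320) and 0.82 (adjusted p = 0.0265) on the log2 scale. The WT call was lost without WT vehicle B or C or WT TGF-β1 A or C, with values of 0.59 to 0.77 in those fits. The PKN2 KO call was lost without PKN2 KO vehicle A or B or PKN2 KO TGF-β1 A or C, with values of 0.58 to 0.87. Whether Thbs1 and Thbs2 differ in their interaction was not tested.

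Among 8 adhesive glycoproteins and fasciclin-domain proteins outside the 5 genes, 6 were tested, and TGF-β1 gave 3 higher and 3 lower in WT and 2 higher and 3 lower in PKN2 KO PSCs. The shares called over all 238 genes were 50.8% in WT and 48.7% in PKN2 KO PSCs. Tnc, which encodes the matricellular tenascin-C, rose by 3.18 on the log2 scale in WT and 3.27 in PKN2 KO PSCs. Edil3, an integrin ligand, rose by 3.65 and 3.12. Tnxb, which encodes tenascin-X, went from 115 ± 12 to 0.961 ± 1.7 normalized counts in WT and from 173 ± 26 to 4.48 ± 0.92 in PKN2 KO PSCs, with 0 to 3 and 3 to 5 reads per library with TGF-β1. Its fitted changes, -6.20 and -5.00, depend on the pseudocount at these reads. Ecm1, which encodes extracellular matrix protein 1, fell in both genotypes, with changes of -1.18 in WT and -0.77 in PKN2 KO PSCs (adjusted p = 0.000302 and 0.00834). Spp1, osteopontin, also fell in both, with changes of -1.13 in WT (adjusted p = 0.00232) and -0.88 in PKN2 KO PSCs, the latter call being lost without PKN2 KO vehicle C (adjusted p = 0.0613) or PKN2 KO TGF-β1 B (-0.59, adjusted p = 0.0591). Between genotypes 1 of the 6 was called, Tnxb after TGF-β1 (1.79), and not with edgeR, DESeq2, a fit of the 6 libraries alone or a pseudocount of 5 (for the last, 0.70, adjusted p = 0.0797; range over 12 such alternatives 0.0130 to 0.10) or without WT TGF-β1 A or B or PKN2 KO TGF-β1 A (1.46 to 1.66). Total count scaling called 4 of the 6 after TGF-β1, Tnxb, Spp1 (0.54) and Ecm1 (0.44) higher and Postn (-0.29) lower in PKN2 KO, and 1 with vehicle, Edil3 (0.69). Spp1 was also called without PKN2 KO TGF-β1 B (0.85) and Edil3 without WT vehicle A (1.04).

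Of 11 receptor genes for these proteins, chiefly integrin subunits, 8 were tested. TGF-β1 gave 4 higher and 2 lower in WT and 3 higher and 3 lower in PKN2 KO PSCs, beside 50.8% and 48.7% of all 238 genes. Itga5, the α chain of the classical fibronectin receptor, rose by 2.10 in WT and 1.86 in PKN2 KO PSCs, from 2985 ± 237 to 12799 ± 1590 and from 3543 ± 191 to 13072 ± 2981 normalized counts (SD, n = 3). Itgb3, the β chain of a receptor that binds fibronectin and thrombospondin, rose by 3.50 and 2.53. Itga3 fell, with changes of -1.75 and -2.12. Itgb8, at 0 to 7 reads per library with TGF-β1, had fitted changes of -2.06 and -2.98, and the WT call was lost without WT vehicle A (-1.87, adjusted p = 0.0642) or WT TGF-β1 B (-1.44, adjusted p = 0.10). Between genotypes 1 of the 8 was called, Itgb3 with vehicle (1.25, adjusted p = 0.0378), which 5 of the 12 fits that left out a library also called. The fits without WT vehicle B or C, PKN2 KO vehicle A, B or C, WT TGF-β1 C or PKN2 KO TGF-β1 C did not (1.04 to 1.35), nor did TMM (1.07) or median-of-ratios scaling (1.03), edgeR (1.19) or limma without a trend. Total count scaling called 3 with vehicle, Itgb3, Itga8 (0.86) and Itgb5 (0.39), and 1 after TGF-β1, Itgb5 (0.42), while a pseudocount of 5 called 2 with vehicle, Itgb3 and Itgb8 (0.98), all higher in PKN2 KO.

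All 9 matrix genes on a list of known TGF-β1 targets in fibroblasts were tested, and TGF-β1 gave 3 higher and 1 lower in WT PSCs. Of all 238 genes, limma called 50.8% for TGF-β1 in WT and 48.7% in PKN2 KO PSCs. In PKN2 KO PSCs limma called 1 of the 9, which was lower, with 2 at an unadjusted p under 0.05, and edgeR and DESeq2 called 1 and 2. Fbn1, fibrillin-1, and Lox, which cross-links collagen, rose by 1.21 and 0.88 in WT PSCs, the Lox call being lost without WT vehicle B (0.72, adjusted p = 0.0561) or WT TGF-β1 A (0.68, adjusted p = 0.0602). Col5a1, a chain of type V collagen, rose by 0.65 in WT PSCs (limma adjusted p = 0.00832), from 8041 ± 302 to 12603 ± 1089 normalized counts (SD, n = 3). In PKN2 KO PSCs the mean of Lox went from 15092 ± 2489 with vehicle to 23349 ± 5866 with TGF-β1. That of Fbn1 went from 2076 ± 221 to 2643 ± 708, and that of Col5a1 from 8446 ± 147 to 9711 ± 1819. These rises were not called by limma, and the interaction of Fbn1, Lox or Col5a1 was not called either. Itga11, the collagen-binding integrin α11 chain, moved against the name of the list, from 105 ± 27 to 7.87 ± 2.1 in WT and from 153 ± 15 to 1.27 ± 1.3 in PKN2 KO PSCs, fitted changes of -3.57 and -6.27, and was lower in PKN2 KO after TGF-β1 (-2.12). It was the 1 of the 9 called between genotypes. TMM and median-of-ratios scaling each called 3 after TGF-β1, Itga11, Fbn1 and Col5a1, all lower in PKN2 KO, and total count scaling 4, Itga11 and Fbn1 lower and Col3a1 and Bgn higher, besides 1 with vehicle, Lox (0.31). Among the mesenchymal markers, Cdh2 (N-cadherin) was the 1 called between genotypes, lower in PKN2 KO after TGF-β1 (-0.75, adjusted p = 0.0260). That call was lost without WT TGF-β1 A or C or PKN2 KO TGF-β1 B (-0.68 to -0.57), and in a fit of the 6 libraries alone. With vehicle Cdh2 was called with TMM, median-of-ratios and total count scaling (-0.71 to -0.54, adjusted p = 0.00291 to 0.00962; up to 0.24 over 13 such alternatives). After TGF-β1 total count scaling called 4 of the markers, Cdh2 lower and Col6a1 (0.84), Col3a1 (0.52) and Bgn (0.29) higher in PKN2 KO, and Col6a1 was also called without PKN2 KO TGF-β1 B (1.23). The list genes named here for a call under another setting were chosen after their values were seen.

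Over the 12 libraries, genes whose log2 normalized counts followed that of Ccn2 closely were Thbs1 (Pearson r = 0.89) and Col5a1 (0.88). Those that followed Thbs1 were Col5a1 (0.98) and Fbn1 (0.93). Neither gene's list held Fn1 or Tgfbi. Thsd7a was most like Adamts14 (0.94), Cdh23 (0.89) and Col2a1 (0.86), Fn1 most like Adam10 (0.95), Lamc1 (0.90) and Serpinf1 (0.90), and Tgfbi most like Sspn (0.95), Serping1 (0.90) and Serpine2 (0.88). Within the 5 genes, Ccn2 and Thbs1 were the most alike (0.89), followed by Fn1 and Tgfbi (0.65), while Ccn2 and Tgfbi ran in opposite directions (-0.67). The 12 points fall into 4 groups and share their libraries' scaling factors, so these values describe the libraries and were not tested.

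**Figure D5:**
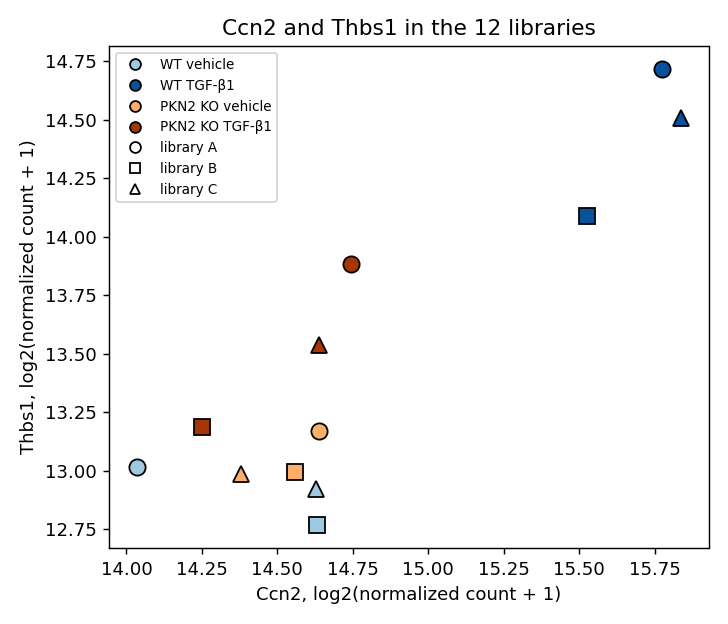
Ccn2 (horizontal axis) against Thbs1 (vertical axis) in the 12 libraries, both as log2(normalized count + 1), coloured by group, with the library letter as the symbol. The 3 WT libraries with TGF-β1 stand apart at the top right, and the PKN2 KO libraries with TGF-β1 have vehicle-like Ccn2 with Thbs1 above that of the PKN2 KO vehicle libraries.

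Genes annotated on the opposite strand overlap the spans of 4 of the 5 genes in the GENCODE annotation of GRCm38: Gm15270 at Ccn2, Gm29233 at Thbs1, Gm16123, Gm44129 and n-R5s160 at Thsd7a, and Apol7d at Fn1. Overlap with exons or with the amplified segments was not checked. Whether the panel's reads were counted by strand is not given in the sources used here, so whether any reads came from these partners is not known. The panel amplifies chosen transcript segments, so counts of different genes, including those in the marker sums, need not rank their transcript levels.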

How the data were processed

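Targeted RNA libraries of WT and PKN2 KO PSCs with vehicle or TGF-β1 (12 libraries, 3 per group) were analysed. The submitters' processing notes name STAR, DESeq2 1.32 and mm10 (GRCm38), and the study's methods name normalization to reference genes. The authors deposited 2 tables of normalized counts, a signal equal to reads divided by 1 factor per library, for 420 genes, and a table of raw counts. One normalized table held the vehicle libraries and the other the TGF-β1 libraries. Whether the factors of these tables share a scale is not stated, and comparisons of TGF-β1 with vehicle under the authors' factors depend on it. The other scalings were computed over all 12 libraries together. In the header of the raw counts, 1 group name occurs in 2 sets of columns, so 6 raw columns were not used. Reads were recovered from the normalized counts: all 420 values per library were whole within 0.01 and equal to the deposited raw counts in the other 6 columns. They gave totals, other scalings and the count tests.

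The 238 genes that reached a normalized count of 10 in 3 or more libraries were tested with limma 3.58.1 (R 4.3.3) on log2(normalized count + 1), with 1 mean per group and eBayes with trend and robust estimation. The p-values were adjusted by Benjamini-Hochberg over the 238 genes, with a threshold of 0.05. Fold changes are on that scale, which understates changes of low genes. The fit was tested on simulated data. Alternatives were TMM, median-of-ratios and total count scaling, DESeq2 1.42.0, edgeR 4.0.16, pseudocounts of 0.5 and 5, other filters, no trend, no robust estimation, a block for the library letter, separate fits of 6 libraries, and each library left out. Total count scaling without a trend, with and without the block, was added after seeing the data. Named genes are the 5 members, up to 4 called genes per list and comparison by size of change, and the 3 genes most correlated with each member. The members, lists and markers were chosen with earlier results of these data known, and some listed or correlated genes are not reported here. Replicate libraries of a group differed beyond sampling noise.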

Additional observations from a re-analysis of the deposited data

Results flagged for a closer look

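2 interactions between genotype and TGF-β1 passed the threshold among the genes named here, each a test of whether the response differed between PKN2 KO and WT PSCs. Ccn2 had an interaction of -1.26 (its lost calls are given above), a lower response in PKN2 KO PSCs. Itga11 had -2.69 (adjusted p = 0.0257), with 7 to 9 reads per library in WT and 0 to 3 in PKN2 KO with TGF-β1, so that its size depends on the pseudocount. The Itga11 call was kept in 4 of 12 fits with a library left out, and lost without WT vehicle B or C, PKN2 KO vehicle A, B or C, WT TGF-β1 A or C, or PKN2 KO TGF-β1 C (adjusted p up to 0.0877), and was also lost with total count scaling (-2.50, adjusted p = 0.0550).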

How the results depend on the processing

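Beside 1 call with vehicle, 4 after TGF-β1, 2 for TGF-β1 in WT, 1 for TGF-β1 in PKN2 KO and 1 interaction among the 5 genes, total count scaling gave 3, 4, 4, 3 and 1 (the interaction being that of Thbs1, not Ccn2). Without a trend as well it gave 3, 4, 4, 2 and 1. TMM, median-of-ratios scaling and DESeq2 each gave 2 calls for TGF-β1 in PKN2 KO PSCs and 2 interactions. edgeR's quasi-likelihood test gave 0 interactions at the threshold, as did limma without a trend, each with 3 at an unadjusted p under 0.05. In the fits that left out 1 library the counts ranged from 0 to 2 with vehicle, 2 to 4 after TGF-β1, 2 to 3 for TGF-β1 in WT, 1 to 2 for TGF-β1 in PKN2 KO and 0 to 2 for the interaction, by the losses and gains named gene by gene above.

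The sign of values far from the threshold changed in a few cases, and the cause was not tested. Ccn2 with vehicle was -0.090 with TMM and -0.14 with median-of-ratios scaling, and -0.10 to 0.19 with 1 library left out. Thbs1 with vehicle was -0.036 and -0.085 with the same scalings. Ccn2 with TGF-β1 in PKN2 KO was -0.18 with total count scaling, also without a trend and with the block, and -0.081 to 0.17 with 1 library left out. For Fn1, leaving out 1 library gave -0.078 to 0.46 after TGF-β1 and -0.43 to 0.11 for TGF-β1 in PKN2 KO PSCs.

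The library letters were not taken as pairs. Over 18 same-lettered pairs of libraries the deviations from group means correlated from -0.23 to 0.70, with 13 over 0.1. The A and B pairs all correlated, at 0.35 to 0.70, while the C pairs lay between -0.23 and 0.14. A library was closest to its own letter in 26 of 36 cases, with 3 letters to choose from in each. The main fit has no block, so it counts any such shared part as spread within groups. With the letter as a replicate block the counts were 3, 4, 4, 3 and 3, in a fit whose prior degrees of freedom were infinite for 197 of 238 genes. Without a trend the block gave 3, 4, 5, 3 and 2, and with total count scaling too 3, 4, 4, 3 and 2. The block without a trend added 8 calls: Fn1 (0.80, adjusted p = 0.00484) and Tgfbi (0.75, adjusted p = 0.00395) with vehicle, Fn1 (0.45, 0.0324), Thsd7a (-0.38, 0.0377) and Tgfbi (-0.61, 0.00419) for TGF-β1 in WT, Thbs1 (0.49, 0.00906) and Tgfbi (-0.38, 0.0435) for TGF-β1 in PKN2 KO, and the Thbs1 interaction (adjusted p = 0.0149). Over all 238 genes it gave 71 calls with vehicle against 33, 90 after TGF-β1 against 36 and 17 interactions against 8, and 87, 101 and 42 with the trend. TMM, median-of-ratios and total count scaling gave 56, 55 and 65 calls after TGF-β1, and the fit without a trend 4 interactions. Depth limits Thsd7a, with as few as 52 reads.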
